A study of Mus musculus with 8 samples.

Results

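The Hox cluster genes are 39 of the 23360 gene symbols measured here in mouse inguinal fat. They were chosen by name: every symbol made of Hoxa, Hoxb, Hoxc or Hoxd followed by a number was taken, and antisense and other noncoding genes of the clusters were left out. The Hoxa cluster on chromosome 6 gave 11 members, the Hoxb cluster on chromosome 11 gave 10, the Hoxc cluster on chromosome 15 gave 9 and the Hoxd cluster on chromosome 2 gave 9. RNA was sequenced from the subcutaneous fat pad of the groin (inguinal white adipose tissue) of mice aged 6 weeks. The Lsd1 KO mice carried floxed Lsd1 together with Adipoq-Cre, a transgene whose promoter is active in adipocytes, and gave 4 libraries. The control mice carried floxed Lsd1, with no Cre named in the labels, and also gave 4 libraries. The labels name no strain or sex and do not say that each library came from its own mouse, so p-values reflect only how much these samples vary, and that variation may be technical. No group carried Adipoq-Cre alone, so an effect of the transgene and of the deletion cannot be told apart.

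Hox genes encode homeodomain transcription factors that set position along the body axis. Within a cluster they lie in the order of their paralogue numbers: low numbers are used from the hindbrain and neck backwards, and high numbers only towards the tail and the ends of the limbs. Genes with the same number in different clusters are paralogues and share much of their sequence. Adult connective tissue cells, fat precursors among them, keep a Hox pattern that depends on where in the body they lie, held silent by Polycomb complexes and active by trithorax (MLL) complexes. Lsd1, encoded by Kdm1a, removes methyl groups from histone H3 lysine residues.

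The libraries held 25671837 to 32442724 reads recovered from the deposited values. Those values are read counts multiplied by a factor for each library, called scaled reads below, and fold changes are KO minus control in log2(value + 1), a scale that makes the changes of low genes look smaller. Kdm1a, the targeted gene, had 566, 578, 547 and 581 scaled reads in KO replicates 1 to 4, against 699, 685, 799 and 735 in control replicates 1 to 4. All KO libraries lay below all controls (log2 fold change -0.36, exact two-sided permutation p = 0.0286, the smallest that 4 against 4 allows). The tissue label was borne out by the adipocyte markers, all 14 of which were measured. Their summed level was 454668 to 495475 scaled reads in KO libraries and 576338 to 729586 in controls, so it was lower in every KO library. Skeletal muscle markers (11 of 12 in the table) summed to 193375, 183919, 12436 and 110935 scaled reads in KO replicates 1 to 4, and to 8420 to 37372 in controls. Mammary epithelium markers summed to 552 and 229 scaled reads in KO replicates 1 and 2 and to 72.2 to 97.0 in the other 6 libraries, with the milk gene Wap at 0 throughout. Much of that excess lay in the keratins Krt5 (237 and 82.2), Krt14 (137 and 39.7) and Krt17 (40.4 and 10.3). Krt18 and Epcam in KO replicates 1 and 2 lay within the range of the other 6 libraries, and Krt8 reached at most 3.27. The tissue behind the excess was not tested. In whole tissue, fewer cells of a type and less RNA per cell cannot be told apart.

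The Hox clusters also carry small regulatory RNAs, shown here because several Hox transcripts hold sequence that pairs with them. Mature microRNAs guide silencing complexes to matching sites in the 3′ ends of mRNAs, mainly through the seed, bases 2 to 8, which is in capitals below. The miR-196 genes lie beside the Hox9 and Hox10 genes in the Hoxa, Hoxb and Hoxc clusters, and the miR-10 genes lie beside Hox4 in the Hoxb and Hoxd clusters. miR-196a and miR-196b share a seed, and so do miR-10a and miR-10b. Sequences are from RefSeq (GRCm38.p6).
miR-196a-5p, chr15:102973365-102973386, plus strand, Hoxc cluster, and chr11:96265187-96265208, plus strand, Hoxb cluster: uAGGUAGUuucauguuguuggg
miR-196b-5p, chr6:52230129-52230150, minus strand, Hoxa cluster: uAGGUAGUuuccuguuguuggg
miR-10a-5p, chr11:96317186-96317208, plus strand, Hoxb cluster: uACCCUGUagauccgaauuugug
miR-10b-5p, chr2:74726074-74726096, plus strand, Hoxd cluster: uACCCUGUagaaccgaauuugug

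The DNA match of the miR-196 seed is ACTACCT, searched on the transcript strand of 3′ untranslated regions in GENCODE M21 (GRCm38). It occurred in 8 of 39 Hox genes (20.5%), against 5.0% of 20035 genes. Among 3′ regions of 300 to 2000 bases the shares were 23.5% of 34 Hox genes and 4.07% of 9942 genes. The 8 genes were Hoxa4, Hoxa5, Hoxa7, Hoxa9, Hoxb1, Hoxb6, Hoxb7 and Hoxc8. Hoxc8 held 2 matches and Hoxa7 held 4, all of the Hoxa7 matches lying beyond the end of the gene in the RefSeq table. None of these motif matches overlapped another. The sites of the 4 Hox genes with the most negative fold changes are printed here with the match in capitals, because all 4 genes hold one; that was seen after the values were known.
Hoxc8, upstream site, chr15:102992968-102992997, plus strand: tagaatgacactcacaactctaACTACCTg
Hoxc8, downstream site, chr15:102993725-102993754, plus strand: actgataataaatctttaacatACTACCTa
Hoxa4, chr6:52190066-52190095, minus strand: tgtaagaaagcactggccatcgACTACCTt
Hoxa9, chr6:52223900-52223929, minus strand: actttaagcaaaaggaaagaaaACTACCTt
Hoxa5, chr6:52202118-52202147, minus strand: tgttaaagatatttttattcaaACTACCTa

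Hoxb8 has a different kind of match, long known from mouse embryos as a target that miR-196 cleaves. In its 3′ region 21 of the 22 bases of miR-196a form Watson-Crick pairs and the remaining base forms a G:U pair, so the seed match is interrupted; the bases opposite the seed are in capitals.
Hoxb8, chr11:96284888-96284909, plus strand: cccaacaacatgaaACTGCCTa

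The inguinal pad showed a Hox pattern that ended at paralogue 10. All 27 members with paralogue numbers 2 to 10 passed the filter of at least 10 scaled reads in at least 4 libraries. Of the 9 members numbered 11 to 13, 0 passed. Hoxb1 and Hoxd1, from the anterior ends of their clusters, did not pass either. In all, 28 of 39 members were tested, 9 from Hoxa, 8 from Hoxb, 6 from Hoxc and 5 from Hoxd.

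The 11 members below the filter reached at most 5.88 scaled reads in any library. Hoxc12, Hoxd1, Hoxd11, Hoxd12 and Hoxd13 were at 0 in all 8 libraries. Hoxa13, Hoxb1 and Hoxb13 had 2, 1 and 2 reads in total, all of them in control replicate 4. Hoxa11, which shapes the middle limb segment, had 39 reads in all, and 35.0% of its transcript is shared with the antisense gene Hoxa11os. Hoxc11 had 47 reads spread over all 8 libraries. Hoxc13, a regulator of hair keratin genes, had 3.27, 0, 1.77 and 2.00 scaled reads in KO replicates 1 to 4, against 0 in every control. That is 14 reads in the KO group, too few for a test.

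Levels were compared between genes per kilobase of transcript, as means over the 8 libraries. Hoxc6, a gene of the thoracic region, averaged 365 scaled reads per kb, with a range of 288 to 473. Hoxc8, a gene of the lower thorax, averaged 325 per kb (range 249.6 to 429.6), and Hoxc10, a gene of the lumbar region and hindlimb, at 287 per kb (range 232 to 325). These 3 were the highest, and their order differed between genotypes. Hoxc8 averaged 271 ± 22.5 per kb in KO and 380.4 ± 38.7 in control libraries, Hoxc10 averaged 307 ± 17.4 in KO and 267 ± 37.7 in control libraries, and Hoxc6 averaged 353 ± 58.5 in KO and 376 ± 83.6 in control libraries (SD, n = 4 each). Per kb, Hoxc8 lay below Hoxc10 in every KO library and above it in every control. It lay below Hoxc6 in every KO library and on either side of it among the controls. The next gene, Hoxb3, averaged 113 per kb (range 92.4 to 137), and its range did not reach that of Hoxc10. Over all 8 libraries that was the only gap among the 27 pairs of neighbours in the order of tested members; from Hoxb3 down to Hoxd10 at 10.3 per kb every neighbour overlapped the next. The highest member below the filter, Hoxc11, averaged 1.45 per kb.

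**Figure D1:**
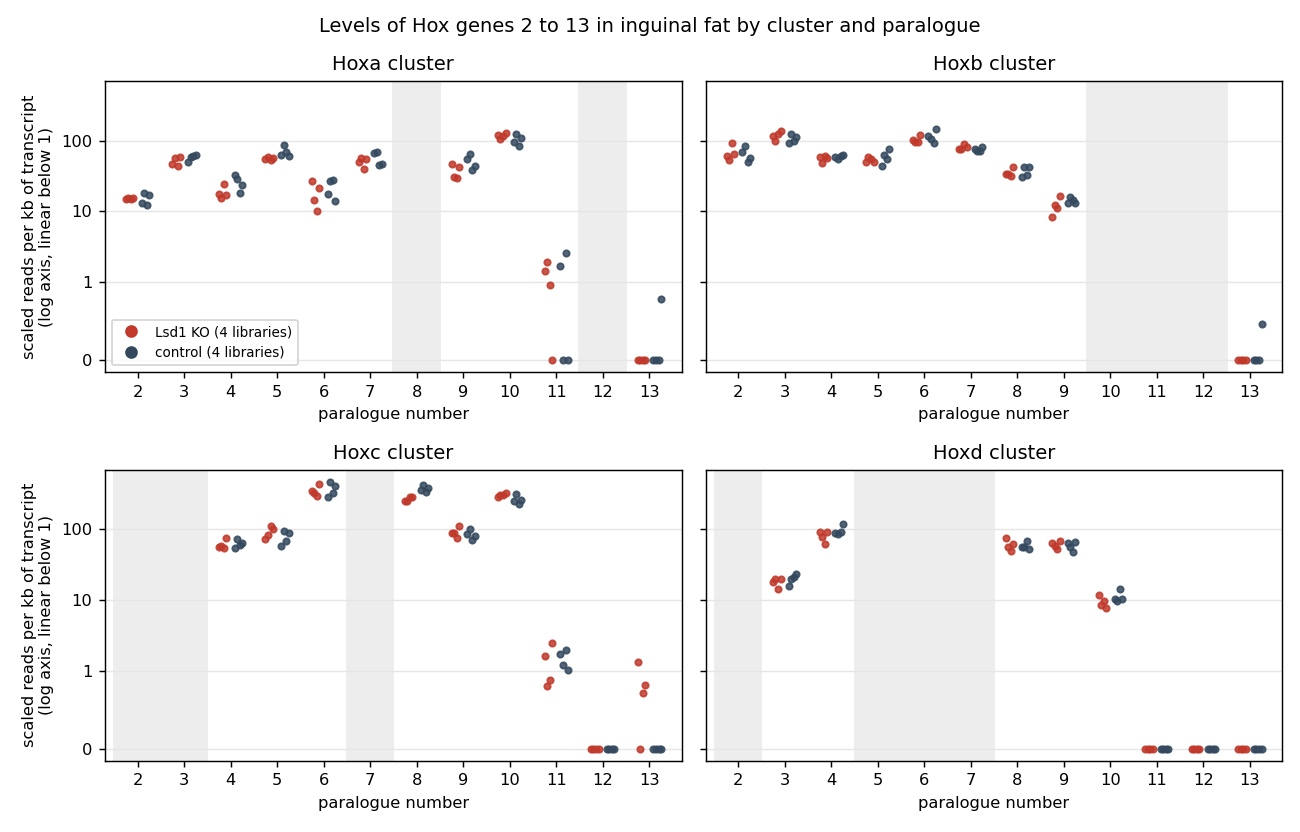
Scaled reads per kb of transcript (vertical axis, log scale, linear below 1) for each Hox gene numbered 2 to 13 by paralogue number (horizontal axis) in the 4 clusters, with 4 Lsd1 KO libraries left and 4 control libraries right of each position; grey columns mark paralogue numbers that a cluster lacks. Beyond paralogue 10 no library exceeds 2.57 per kb, and Hoxc6, Hoxc8 and Hoxc10 stand highest.

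The Hoxc cluster gave the largest share of Hox RNA in both genotypes. Summed per kb over its members, it made up 50.8% ± 1.48 of the Hox total in KO libraries and 50.9% ± 1.98 in controls (SD, n = 4 each). Hoxb made up 22.9% ± 1.48 in KO and 21.8% ± 1.22 in control libraries. For Hoxa the share was 16.4% ± 0.841 in KO and 17.1% ± 1.27 in controls, and for Hoxd it was 9.96% ± 1.33 in KO and 10.1% ± 1.33 in controls. The groups overlapped for every cluster. The total over all Hox genes was 2319 ± 170 scaled reads per kb in KO libraries and 2446 ± 276 in controls, also with overlap.

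Between genotypes, 1 of the 28 tested Hox genes, Hoxc8, passed an adjusted p of 0.05 (limma with Benjamini-Hochberg adjustment over 14591 genes), and it was lower in KO. That is to be read against 1.64% of all tested genes in either direction, 0.356% lower and 1.28% higher. The 4 KO and 4 control values did not overlap for 2 Hox genes, Hoxc8 and Hoxa5, against 8.65% of all tested genes, and both were lower in KO, as in 3.58% of all. An unadjusted p under 0.05 was found for 1 of 28, against 14.5% of all genes. Negative fold changes were found for 18 of 28 Hox genes, against 45.4% of all tested genes. The median log2 fold change was -0.10 over the tested Hox genes and 0.02 over all tested genes. The other 27 had adjusted p-values of 0.349 to 0.956, and the 95% confidence intervals of their log2 fold changes reached at most from -1.03 to 0.67.

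**Figure D2:**
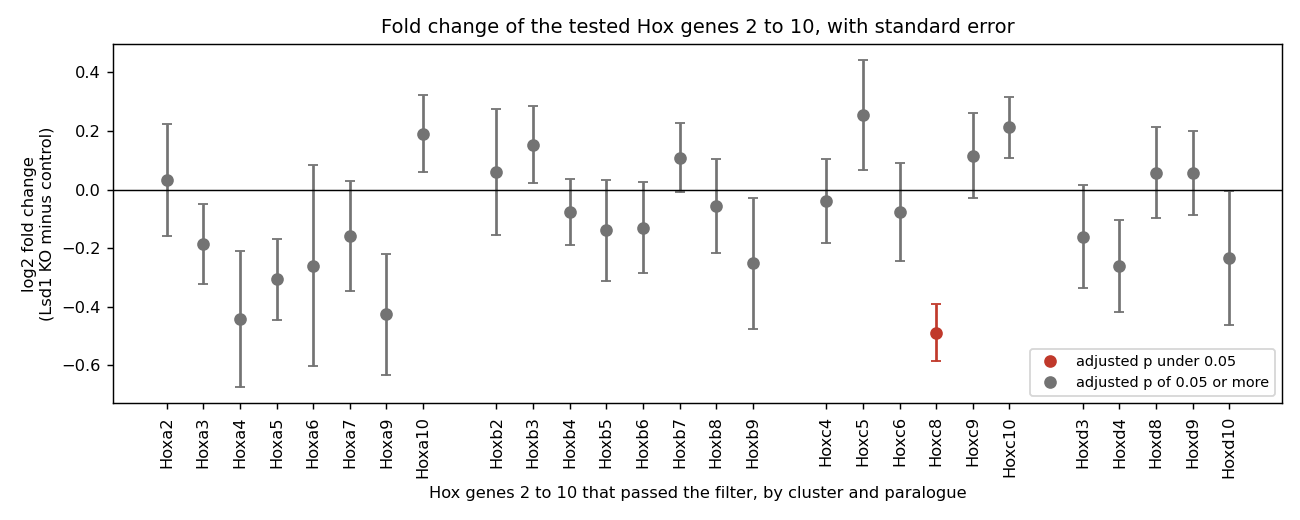
Log2 fold change (vertical axis, Lsd1 KO minus control) with its standard error for the 27 tested Hox genes numbered 2 to 10, ordered by cluster and paralogue; red marks an adjusted p under 0.05. Hoxc8 is the only red point, and Hoxa members are mostly below 0.

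In the Hoxc cluster, Hoxc8 fell in KO and no other member was called. Hoxc8 (NM_010466, chromosome 15, 102990539 to 102994275 in GRCm38.p6) is known from mouse work as a repressor of Cebpb, a gene of brown fat formation, and as a target of miR-196a in fat precursors. It had 466, 472, 541 and 542 scaled reads in KO replicates 1 to 4, against 674, 803, 636 and 729.8 in control replicates 1 to 4. The highest KO library lay below the lowest control. The means were 505 ± 42.1 in KO and 711 ± 72.4 in control libraries (SD, n = 4 each), a log2 fold change of -0.49 (SE 0.097, 95% confidence interval -0.71 to -0.27, limma adjusted p = 0.0404). None of its exon bases are shared with another annotated gene. The call was lost when any library other than control replicate 3 or KO replicate 3 was left out (adjusted p 0.0755 to 0.152), and under TMM, RLE or upper-quartile scaling (0.0525 to 0.0590). It was also lost with edgeR (0.0535), limma-voom (0.0640) and each of the 4 marker scores tried as a covariate (0.111 to 0.147), while the log2 fold change stayed between -0.54 and -0.40 in all 26 alternatives.

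The genes around Hoxc8 had overlapping groups. Hoxc6, which lies next to it on the anterior side and is used in thoracic patterning, had 552, 518, 476 and 689 scaled reads in KO replicates 1 to 4, against 455, 748, 519.5 and 656 in control replicates 1 to 4. The control range contained the KO range, and control replicate 2 was the highest (log2 fold change -0.08, SE 0.17). Hoxc10, reported in mouse subcutaneous fat as a repressor of browning, had 540.4, 591, 595 and 619.6 scaled reads in KO replicates, against 479, 609.9, 442 and 505 in controls. Control replicate 2 reached into the KO range and the other 3 controls lay below it (log2 fold change 0.21, SE 0.11, adjusted p = 0.401).

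Hoxc5, a gene of the neck and upper thorax, had 211, 246, 332 and 294 scaled reads in KO replicates, against 172, 275, 199 and 263 in controls. The groups overlapped widely (log2 fold change 0.26, SE 0.19, adjusted p = 0.577). Hoxc9, the neighbour of Hoxc8 on the posterior side, had a log2 fold change of 0.12, and Hoxc4 had -0.04. Hoxc10 shares 8.70% of its transcript with a longer Hoxc5 transcript on the same strand, and the transcripts matched to Hoxc4, Hoxc5, Hoxc6 and Hoxc9 by their RefSeq accessions share no exon bases.

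**Figure D3:**
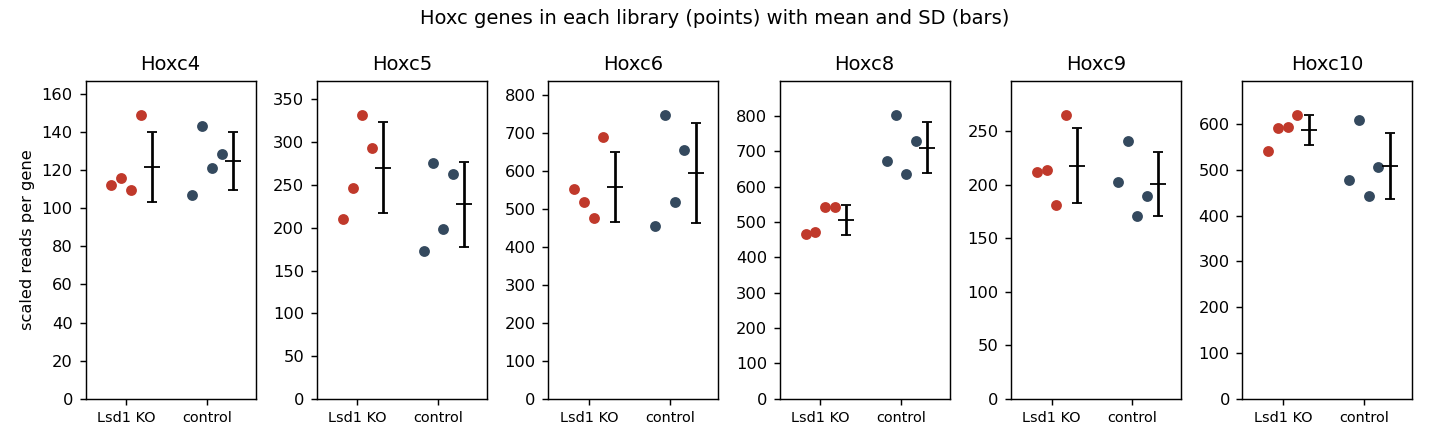
Scaled reads per gene (vertical axis, from 0) of the 6 tested Hoxc genes in each library, Lsd1 KO left and control right, with mean and SD as black bars. Hoxc8 is the only panel in which the KO and control points do not overlap.

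Set against its neighbours within each library, Hoxc8 was also low in KO. The ratio of Hoxc8 to Hoxc10 was 0.863, 0.798, 0.911 and 0.875 in KO replicates 1 to 4, against 1.41, 1.32, 1.44 and 1.44 in control replicates 1 to 4. A ratio within a library does not depend on how that library was scaled. Its ratios to Hoxc4, Hoxc5, Hoxc9 and Hoxb8 were likewise lower in every KO library than in any control, whereas those to Hoxc6 and Hoxd8 overlapped. The ratios were formed after the Hoxc8 values were known and are a description with no test, and they show unequal change of 2 genes, not which of them changed.

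Like Hoxc8, the adipocyte markers had a lower summed level in every KO library than in any control. Within the KO group the order was not the same: KO replicate 1 had the highest adipocyte sum and the lowest Hoxc8 value. Of 14 adipocyte markers, 12 had a negative fold change, against 45.4% of all tested genes. The median log2 value of the 14 was -0.26. The lipid droplet gene Cidec was called lower in KO by limma, and DESeq2 called 5 lower, Cidec among them. Over all 14591 tested genes limma called 0.356% lower and DESeq2 called 284 lower. The part of the adipocyte markers in the Hoxc8 result was not tested. KO replicate 3 had the lowest KO muscle level and a Hoxc8 value of 541 scaled reads, against 466, 472 and 542 in the muscle-rich KO replicates 1, 2 and 4. With the muscle score as a covariate the Hoxc8 log2 fold change was -0.40 (adjusted p = 0.118). Adipose progenitor and fibroblast markers, the cells in which positional Hox patterns are best known, summed to 165736 to 223961 scaled reads in KO libraries and 161574 to 197234 in controls. All 12 progenitor markers had a positive fold change, against 7970 of all 14591 tested genes. The median log2 value of the 12 was 0.14. Of the 12, 0 were called by limma and 1 by DESeq2, against 239 and 776 of all tested genes. An unadjusted limma p under 0.05 was found for 2 of the 12, against 14.5% of all tested genes. With their score as a covariate the Hoxc8 log2 fold change was -0.46 (adjusted p = 0.111).

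**Figure D4:**
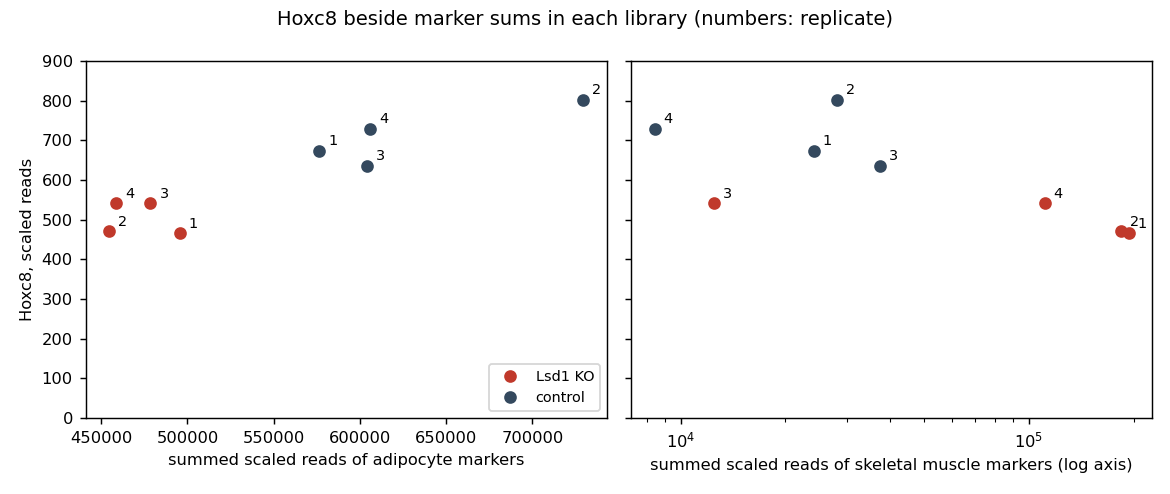
Hoxc8 in scaled reads (vertical axis, from 0) against the summed scaled reads of adipocyte markers (left) and skeletal muscle markers (right, log axis) in each library, with replicate numbers beside the points. KO libraries have both lower Hoxc8 and lower adipocyte marker sums than all controls, while the muscle sums of the 2 groups overlap.

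Both paralogues of Hoxc8 had overlapping groups. Hoxb8, which acts in spinal cord and blood cell development, had 89.98, 88.2, 83.2 and 111 scaled reads in KO replicates 1 to 4, against 81.0, 113, 84.7 and 111 in control replicates 1 to 4. The groups covered the same range, with a log2 fold change of -0.06 (SE 0.16, 95% confidence interval -0.41 to 0.30). Hoxd8 had 202, 150.2, 129 and 166 scaled reads in KO replicates, against 148, 147, 183 and 139 in controls. KO replicate 1, a muscle-rich library, was highest, and the log2 fold change was 0.06 (SE 0.15, 95% confidence interval -0.29 to 0.40). With the muscle score as a covariate that value was -0.17, so its sign was not settled. The differences between Hoxc8 and these paralogues were not tested.

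Members of the Hoxa cluster were mostly lower in KO without any passing the threshold: 7 of 9 log2 fold changes were below 0, against 45.4% of all tested genes. The median of the 9 was -0.19. Hoxa4, a gene of the neck region, had 28.4, 24.5, 38.9 and 26.96 scaled reads in KO replicates 1 to 4, against 51.7, 45.7, 28.9 and 37.7 in control replicates 1 to 4. KO replicate 3 lay inside the control range and the other 3 KO libraries lay below it (log2 fold change -0.44, SE 0.23, adjusted p = 0.427). Hoxa9, known from blood stem cells and leukaemia, had 152, 100.1, 95.6 and 136 scaled reads in KO replicates, against 179.6, 208, 124 and 139.8 in controls. KO replicates 1 and 4 lay among the controls and the other 2 lay below them (log2 fold change -0.43, SE 0.21, adjusted p = 0.389). With control replicates 1 and 2 both left out, Hoxa4 was at -0.17, Hoxa9 at -0.15, Hoxa5 at -0.21 and Hoxa6 at -0.20. Hoxa3 and Hoxa10 then lay further from 0 than with all libraries, at -0.29 and 0.29.

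Hoxa5, a gene of the neck and upper thorax, had 104, 111, 98.6 and 105 scaled reads in KO replicates 1 to 4, against 117, 164, 128 and 114 in control replicates 1 to 4. The KO values lay below all controls by a narrow margin. Hoxa5 averaged 105 ± 5.11 in KO and 131 ± 23.0 in control libraries (SD, n = 4 each), a log2 fold change of -0.31 (SE 0.14, limma adjusted p = 0.349). An exact two-sided permutation test gave p = 0.0286, its lower limit here.

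Hoxa3, needed for the thymus and parathyroid, had 122, 145, 113 and 153 scaled reads in KO replicates, against 129.8, 151, 158 and 165 in controls. The groups overlapped (log2 fold change -0.19), and 29.5% of the transcript is shared with noncoding and antisense genes. Hoxa6 was scarce, at 23.5, 12.5, 8.85 and 18.5 scaled reads in KO replicates, against 15.1, 23.1, 24.0 and 12.4 in controls. At this level the 95% confidence interval of its log2 fold change ran from -1.03 to 0.51. Hoxa10, which acts in the uterus and lumbar spine, was the highest Hoxa gene per kb and had 305, 273, 299 and 328 scaled reads in KO replicates, against 246, 324, 214 and 282 in controls. Its groups overlapped with a log2 fold change of 0.19 (SE 0.13).

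The Hoxb genes gave no calls. Of their 8 log2 fold changes 5 were negative, against 45.4% of all tested genes, and the median was -0.07. Their 95% confidence intervals reached from -0.75 (Hoxb9) to 0.54 (Hoxb2), so sizeable changes either way were not excluded. Hoxb3, a hindbrain and pharyngeal gene, had 217, 189, 237 and 258 scaled reads in KO replicates 1 to 4, against 175, 231, 187 and 216 in control replicates 1 to 4. The groups overlapped (log2 fold change 0.15), and 50.9% of its transcript is shared with the antisense gene Hoxb3os, so part of these reads may belong to either strand. Hoxb6 had 137, 127, 127 and 161 scaled reads in KO replicates, against 152, 139.6, 124 and 195 in controls, again with overlap (log2 fold change -0.13).

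Hoxb7 had 98.2, 99.6, 117 and 105 scaled reads in KO replicates, against 97.1, 93.4, 93.5 and 105 in controls. Of its controls, 3 were lower than every KO library and the fourth was not (log2 fold change 0.11, SE 0.12). Hoxb9, which with its paralogues acts in mammary gland development, had 21.3, 32.1, 28.3 and 42.4 scaled reads in KO replicates, against 33.7, 40.8, 36.7 and 33.5 in controls. The controls all lay inside the KO range (log2 fold change -0.25, SE 0.22).

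Of the 5 tested Hoxd genes, 3 had a negative log2 fold change, against 45.4% of all tested genes, and the median was -0.16. Hoxd4, a hindbrain gene, had 236, 197, 159.7 and 238 scaled reads in KO replicates 1 to 4, against 228, 221, 237 and 307 in control replicates 1 to 4. KO replicates 2 and 3 lay below all controls and the other 2 lay among them (log2 fold change -0.26, SE 0.16, adjusted p = 0.497). A predicted gene on the same strand shares 45.1% of this transcript. Hoxd9, a gene of the limb stem and lower trunk, had 137, 124, 114 and 147 scaled reads in KO replicates, against 139, 119, 103 and 143 in controls. The ranges were nearly identical (log2 fold change 0.06).

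The remaining 10 tested members, among them Hoxa2, Hoxa7, Hoxb2, Hoxb4, Hoxb5, Hoxc4, Hoxc9, Hoxd3 and Hoxd10, had log2 fold changes of -0.23 to 0.12 and adjusted p-values of 0.693 to 0.956. Shared exons limit some of these: 58.5% of the Hoxb2 transcript is shared with Hoxb3os, 28.8% of Hoxa7 with Hoxaas3, and 88.0% of Hoxd3 with Hoxd4, Hoxd3os1 and a predicted gene. Of the 39 members, 25 share no exon bases with another annotated gene. By paralogue number, all 4 Hox4 genes and all 3 Hox6 genes had negative values, and both Hox2 genes had positive ones. Over all tested genes 45.4% of values were negative. These paralogue numbers were picked by sign with no test, and some values were close to 0, such as -0.04 for Hoxc4 and 0.03 for Hoxa2.

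The fold changes were also laid out by the miR-196 seed match described above. The 7 tested Hox genes with a match had a median log2 fold change of -0.31, with 6 of 7 negative and a range of -0.49 to 0.11. The 21 tested Hox genes without one had a median of -0.06, with 12 negative. Over the rest of the genome, 820 tested genes with a match had a median of -0.01 (52.1% negative) and 12741 without had a median of 0.02 (44.7% negative). The groups with and without a match were not matched for the length of the 3′ region. Hoxb8, with the near-complete match, had a log2 fold change of -0.06. This grouping was made after the fold changes were known and has no test, and 4 of the 7 genes lie in the Hoxa cluster.

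Mature miR-196 was not measured in these libraries of longer RNA. The hairpin genes themselves gave 8 reads for Mir196a-1, 16 for Mir196b and 0 for Mir196a-2 over all 8 libraries. The miR-10 seed match, ACAGGGT, occurred in 3 of 39 Hox genes (7.69%), Hoxa3 and Hoxd1 among them, against 10.4% of all genes. Hoxa3 had a log2 fold change of -0.19.

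The CpG content of Hox promoters was looked at because Polycomb complexes gather at CpG-rich promoters. Promoter sequence, 250 bases before to 50 after the start, was found for 22 of 39 members, and Hoxc8 was not among them. The median ratio of observed to expected CpG was 0.593 for 15 tested Hox genes and 0.787 for 7 untested ones, against 0.744 for 11183 tested genes and 0.389 for all 27025 promoters. Among the Hox promoters it ran from 0.257 to 1.02.

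Genes that work with Hox proteins did not pass the threshold. Of 9 TALE homeodomain cofactors (Pbx, Meis and Pknox genes), which bind DNA together with Hox proteins, 8 were in the table and tested. Of these, 0 were called by limma, edgeR, limma-voom or DESeq2, against 239, 218, 200 and 776 of all 14591 tested genes. An unadjusted limma p under 0.05 was found for 0 of the 8, against 14.5% of all tested genes. The median log2 fold change of the 8 was -0.05. Pbx2, the most abundant, averaged 893 ± 29.1 scaled reads in KO and 977 ± 53.8 in control libraries (SD, n = 4 each; log2 fold change -0.13, adjusted p = 0.443). Its KO and control values did not overlap, as for 8.65% of all tested genes. Pknox1 had a log2 fold change of -0.01 and Meis3 of 0.24.

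Chromatin regulators of Hox clusters gave no limma calls. Of 22 Polycomb genes 0 were called by limma, edgeR or limma-voom and 2, Bmi1 and Cbx6, by DESeq2. Over all 14591 tested genes limma called 239 (1.64%), edgeR 218, limma-voom 200 and DESeq2 776. An unadjusted limma p under 0.05 was found for 3 of the 22, against 14.5% of all tested genes, and the median log2 fold change was -0.02. Bmi1, a subunit of the complex that ubiquitinates histone H2A, had a log2 fold change of -0.25 (limma adjusted p = 0.203). Cbx6, a chromodomain reader of the Polycomb mark, averaged 1681 ± 154 scaled reads in KO and 1325 ± 111 in control libraries (SD, n = 4 each; log2 fold change 0.34, limma adjusted p = 0.115). For both genes the KO and control values did not overlap, as for 8.65% of all tested genes. Of 12 trithorax and H3K27 demethylase genes 0 were called by any of these tools. An unadjusted limma p under 0.05 was found for 1 of the 12, against 14.5% of all tested genes. It was the demethylase Kdm6b (log2 fold change -0.31, limma adjusted p = 0.250). The Kdm6b values ran from 792 to 1123 scaled reads in KO and from 1161 to 1344 in control libraries. These did not overlap either, to be read against the same 8.65%. Kmt2a, which encodes the MLL methyltransferase, had a log2 fold change of 0.07 and Kmt2b of -0.20.

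Noncoding genes of the clusters were near the limit of detection. Of 20 listed noncoding and Evx neighbours, 12 were in the table and 0 passed the filter. Hotair, a noncoding RNA of the Hoxc cluster, gave 32 reads over all libraries, Hoxaas3 gave 112 and Hoxd3os1 gave 48. All 6 ParaHox genes, relatives of the Hox genes used in gut and pancreas, were below the filter, and 5 of them were at 0 throughout, the exception being Cdx1 with 8 reads.

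Among other positional genes of fat and limb, Tbx4 was the one called. It encodes a T-box factor of the hindlimb, and had 24.0, 32.1, 26.5 and 33.0 scaled reads in KO replicates 1 to 4, against 4.39, 2.95, 5.88 and 1.55 in control replicates 1 to 4. Every KO library exceeded every control. The means were 28.9 ± 4.33 in KO and 3.69 ± 1.86 in control libraries (SD, n = 4 each), a log2 fold change of 2.75 (SE 0.34, limma adjusted p = 0.00374). Tbx4 passed the filter through its KO libraries alone, so it could enter the test only by being higher there. With no filter on low values its adjusted p was 0.00464.

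Of the 30 positional genes listed, 22 were tested and limma called 1, Tbx4, against 1.64% of all tested genes; DESeq2 called 2, Tbx4 and Tbx18. An unadjusted limma p under 0.05 was found for 7 of the 22, against 14.5% of all tested genes. The 7 were Tbx3, Tbx4, Tbx18, En1, Lhx8, Meox2 and Nr2f1, with log2 fold changes from -0.74 to 2.75. The median over the list was 0.01. Pitx1, which acts upstream of Tbx4 in the mouse hindlimb, averaged 13.5 ± 4.44 scaled reads in KO and 11.7 ± 2.30 in control libraries (SD, n = 4 each; log2 fold change 0.15). Tbx5, the forelimb counterpart of Tbx4, had a log2 fold change of 0.06. Tbx15, a marker of subcutaneous fat, had -0.02. Prrx1, the most abundant, had 0.08, Meox2 had -0.21 and Nr2f2 had 0.01.

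**Figure D5:**
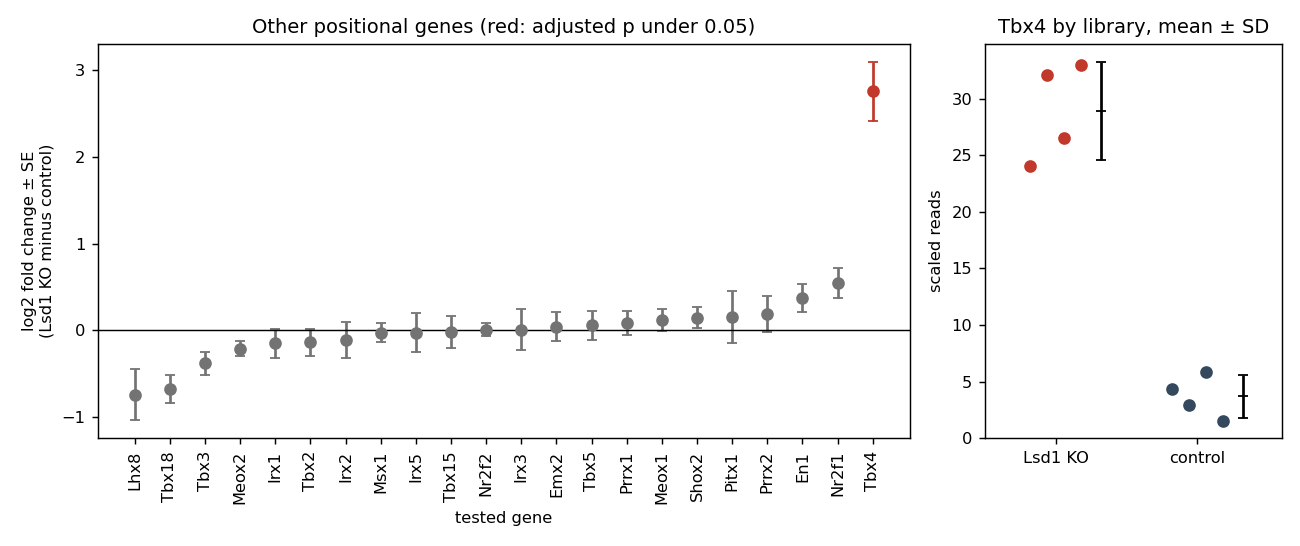
Left, log2 fold change (vertical axis, Lsd1 KO minus control) with its standard error for the 22 tested positional genes outside the Hox clusters, red for an adjusted p under 0.05. Right, Tbx4 in scaled reads in each library with mean and SD as black bars, with KO between 24.0 and 33.0 and controls between 1.55 and 5.88.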

How the data were processed

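Each library was deposited as values per RefSeq accession (23373 rows, 1 without an accession and at 0). Per the submitters' processing notes and design text, reads were aligned with TopHat 2 to mm10 and counted with HOMER, and the authors used edgeR and DESeq 1.8.3. For HOMER's version, its annotation, the strandedness and the scaling, the sources used here give nothing. The deposited values are a signal: in each library 99.99 to 100% were whole multiples of 1 step (tolerance 0.02), so the authors' read counts were multiplied by 1 factor per library. Dividing by the step gave the recovered reads, and a step may be 1 end of a read pair. Between 9.26 and 12.1% of each total lay in its 10 highest genes.

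Accessions were named from RefSeq tables (22527) and GENCODE M21 (124), and 721 kept their accession. Where 12 symbols had 2 rows, the larger row was used. Genes reaching 10 in at least 4 libraries were tested with limma 3.58.1 (R 4.3.3; mean-variance trend, log2(value + 1), pseudocount 1, genotype only) and adjusted over 14591 genes. On the recovered reads edgeR 4.0.16 called 218 genes and DESeq2 1.42.0 called 776. Single genes had exact permutation tests over 70 assignments. Lengths, exon overlaps and 3′ regions came from GENCODE M21. The test was checked on simulated data.

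The members, gene lists and tests were chosen with earlier results of these data known. Members were given with all 8 values if called, among the 3 highest per kb in their cluster, among the 8 largest absolute fold changes, or paralogues of a called member. Genes from lists were named if past the threshold or among the 3 highest, and some others were named after their values were seen. Some items that these rules name are not reported here. Alternatives were other pseudocounts (0.5, 5), filters (none, 50), scalings, count tests, all rows as deposited, leaving out libraries, and marker scores as covariates.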

Additional observations from a re-analysis of the deposited data

Results flagged for a closer look

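In 56 groups of 4 values (28 tested Hox genes, KO and control), 2 had a library far from the others by Dixon's criterion, and chance gives about 1 in 20. Hoxc4 had 148.8 scaled reads in KO replicate 4, against 109.7 to 116 in the other 3 KO libraries. Hoxd10 had 25.95 scaled reads in control replicate 3, against 17.7 to 18.6 in the other 3 controls.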

How the results depend on the processing

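The count of called Hox genes was 1 under both other pseudocounts, both other filters, library totals, DESeq2 and all rows as deposited. It was 0 under TMM, RLE and upper-quartile scaling, edgeR on recovered and on halved reads, limma-voom, all 4 marker covariates, and without control replicates 1 and 2 together (titles 518 and 517, apart from the other numbers); the cause was not tested. Leaving out 1 library gave 0 to 1. The Hoxc8 log2 fold change stayed negative throughout, with adjusted p from 0.00128 (DESeq2) to 0.238 (without control replicates 1 and 2). The count over all genes, 239, was 776 with DESeq2, 97 without those 2 controls, 113 with the B cell score and 87 to 449 without 1 library. Hoxb8 reversed to 0.018 without control replicate 2, 0.011 without control replicate 4 and 0.022 with the B cell score. Hoxc6 reversed to 0.043 without control replicate 2 and 0.040 with the B cell score (-0.196 to 0.043 without 1 library). Hoxd8 reversed to -0.054 without KO replicate 1, and to -0.173, -0.064 and -0.143 with the muscle, mammary and progenitor scores (-0.054 to 0.159 without 1 library). Hoxd9 reversed to -0.035 without control replicate 3, -0.0023 without KO replicate 4 and -0.015 with the progenitor score (-0.035 to 0.123 without 1 library). Over the 18 Hox genes given with all values and Tbx4, 461 values kept direction and side of the threshold, 17 lost the call (all Hoxc8) and 12 reversed. With the filter at 50, Hoxa4, Hoxa6, Hoxb9 and Tbx4 gave no value. No paired analysis was possible because the numbers in the sample titles are not shared between genotypes. Depth limits the 11 members below the filter, where 1 read is 0.442 to 0.545 scaled reads.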

Other observations

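Some positional genes outside the Hox clusters had larger absolute log2 fold changes than any tested Hox gene without passing the limma threshold. The tested Hox genes ran from -0.49 to 0.26. Tbx18, a T-box gene of mural and mesenchymal cells, averaged 99.9 ± 20.5 scaled reads in KO and 159 ± 16.4 in control libraries (SD, n = 4 each). Its log2 fold change was -0.68 (limma adjusted p = 0.0856), and it was called by DESeq2. Its groups did not overlap, as for 8.65% of all tested genes. Lhx8, a LIM homeobox gene known as a marker of brown fat, had a log2 fold change of -0.74 (adjusted p = 0.286) with overlapping groups. Nr2f1, an orphan nuclear receptor, had 0.54 (adjusted p = 0.191).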
